A study of Mus musculus with 5 samples.

Results

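The genes described here encode the core of the splicing machinery and the hnRNP proteins that coat nascent RNA. They were all genes on the array whose symbol in the platform annotation begins with Srsf, Sfrs, Snrp, Sf3a, Sf3b, Hnrnp, Hnrp, Prpf or U2af, taken from probe sets that carry a single gene symbol. The rule found 57 genes with 141 probe sets, of 12393 genes with 20380 probe sets. They comprise 9 SR proteins, 8 Sm and snRNP proteins, 9 subunits of the SF3 complex, 3 genes named for U2AF, 18 hnRNP proteins and 10 PRP factors. The rule itself uses symbols and no measured value.

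The study measured RNA from whole hearts of 5 wild-type mouse embryos at E12.5, 1 heart per Affymetrix mouse 430A array, from a 129P2/OlaHsd background after 2 generations of backcrossing to C57BL/6. RNA of single hearts was amplified from 10 ng with a kit and hybridised as biotin-labelled cDNA. The labels name no treatment, no second genotype and no litter, so the hearts form 1 group and the spread between them may be technical in part. They are called hearts 6 to 10 after the replicate numbers in the labels, and lists of 5 values below follow that order. Levels are log2(intensity + 16). Each gene is read from its probe set of highest mean, and the level of a probe set depends on how well it hybridises, so levels are compared between hearts and not between genes. A whole heart mixes cell types, and fewer cells of a type cannot be told apart from less RNA per cell.

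Splicing removes introns in a complex built stepwise on each pre-mRNA. The U1 particle binds the start of the intron and U2AF marks its end. The U2 particle, which holds the SF3 complex, then settles on the branch site. Next the U4/U6.U5 particle, which holds several of the PRP factors, joins, and rearrangement and catalysis follow. Sm proteins form the ring around the small nuclear RNAs. SR proteins, which carry stretches rich in arginine and serine, mostly favour inclusion of exons, whereas many hnRNP proteins compete with them, so that the balance of both sets which exons a tissue uses. In the heart many contractile and calcium-handling transcripts are spliced differently before and after birth, and SR and hnRNP proteins are known to be needed for that programme.

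Promoter sequence was examined as a feature that the choice of genes did not use. RefSeq promoters on GRCm38.p6 were matched to 51 of the 57 genes (71 windows), and the 250 bases before each start were searched on both strands for 6 motifs. The ETS core CCGGAA occurred in 32 windows (45.1%), against 23.3% of 7018 windows of genes above background in all hearts and 12.0% of all 32851 windows. Those 32 windows belong to 27 of the 51 genes, and no share by gene was worked out for the other sets. Motif shares here are shares of windows. Windows of 1 gene can overlap, as for Srsf4 and U2af1, so the same match can be counted more than once. The CCAAT box CCAAT occurred in 47.9% of the windows, against 35.5% for detected genes and 33.8% for all. The GC box GGGCGG occurred in 62.0%, against 59.7% and 32.7%, so its share was near that of detected genes. The TATA box TATAAA was found in 7.04% (6.41% and 12.4%), the NRF1 core GCGCATGC in 4.23% (4.92% and 2.26%) and the YY1 core AAGATGG in 1.41% (4.43% and 4.49%). The median count of CG dinucleotides was 20 per window, against 16 for detected genes and 6 for all. A gene on the other strand started within 1000 bases upstream, head to head, for 17 of the 51 genes (33.3%), against 21.6% of detected genes and 12.3% of all. Examples are Hnrnpa2b1 with Cbx3, Hnrnpa1 with Cbx5 and Prpf31 with Tfpt.

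Promoters of 4 genes are printed because their transcripts behaved differently in heart 7, as described below. Most probe sets of Srsf1 and Srsf3 were lowest in heart 7, whereas Snrpe was highest and Snrpg near its mean there. Capitals mark matches to the 6 motifs on either strand, and each sequence runs 5′ to 3′ towards the start of the gene.
Srsf1, chr11:88047123-88047372, plus strand: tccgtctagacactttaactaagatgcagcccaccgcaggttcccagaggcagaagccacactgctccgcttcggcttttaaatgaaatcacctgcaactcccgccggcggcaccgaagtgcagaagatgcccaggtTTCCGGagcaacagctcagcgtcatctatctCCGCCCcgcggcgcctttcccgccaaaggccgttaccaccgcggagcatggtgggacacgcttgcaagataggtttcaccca
Srsf3, chr17:29032410-29032659, plus strand: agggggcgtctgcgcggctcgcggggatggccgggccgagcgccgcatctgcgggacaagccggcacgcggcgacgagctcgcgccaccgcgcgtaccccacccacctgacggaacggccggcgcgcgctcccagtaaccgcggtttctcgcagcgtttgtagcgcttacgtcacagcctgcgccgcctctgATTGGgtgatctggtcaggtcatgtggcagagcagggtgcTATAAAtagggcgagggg
Snrpe, chr1:133610281-133610530, minus strand: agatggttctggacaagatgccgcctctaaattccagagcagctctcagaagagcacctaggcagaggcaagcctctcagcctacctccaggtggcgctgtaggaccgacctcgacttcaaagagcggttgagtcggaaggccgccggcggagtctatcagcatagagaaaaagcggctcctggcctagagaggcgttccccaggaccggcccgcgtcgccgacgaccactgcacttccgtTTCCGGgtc
Snrpg, chr6:86371290-86371539, plus strand: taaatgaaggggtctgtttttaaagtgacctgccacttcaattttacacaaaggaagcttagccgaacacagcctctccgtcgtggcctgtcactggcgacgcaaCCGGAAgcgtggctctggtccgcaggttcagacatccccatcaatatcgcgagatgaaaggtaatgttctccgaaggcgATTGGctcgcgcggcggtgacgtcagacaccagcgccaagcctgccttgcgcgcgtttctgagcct
Srsf1 and Snrpe both hold an ETS core, which in Srsf1 stands with a GC box, while Snrpg holds an ETS core and a CCAAT box and Srsf3 a TATA box and a CCAAT box. A match is a run of letters and not a measured binding site, and no motif in this window was set against the expression values.

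Background on each array was set by 58 measured genes of unrelated tissues, such as lens, testis and pancreas. It was taken at their 95th percentile and lay between 4.99 (heart 10) and 5.40 (heart 7) on the 5 arrays. Detected means above it in all 5 hearts. By that rule 52 of the 57 genes were detected (91.2%), against 53.7% of all genes, and 117 of the 141 probe sets (83.0%), against 48.2%. None of the 57 was below background in every heart. The remaining 5 were Srsf4 (5.60 ± 0.22), Hnrnpl (5.21 ± 0.28), Prpf40b (5.36 ± 0.55) and Snrpn (5.26 ± 0.52), each above background in 4 hearts, and Sf3b4 (5.01 ± 0.23), above it in 1 (mean ± SD, n = 5 throughout). Srsf4 and Hnrnpl missed it in heart 7, and Prpf40b in heart 9. The level of Srsf4 in heart 7, 5.26, exceeded the background of each other array (4.99 to 5.23), so it missed only the higher background of heart 7. Snrpn encodes SmN, an Sm protein from an imprinted locus, and is read here from its only probe set with a single symbol. Sf3b4 has another probe set, which exceeded background in no heart. A gene under this level may still be expressed, since its value rests on 1 probe set. Without heart 7, 54 genes were detected, against 56.2% of all.

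The SR genes include the one with the widest range of the 57. Srsf1, which selects 5′ splice sites and is needed for normal splicing in heart muscle, had levels of 11.09, 10.18, 11.71, 10.75 and 11.59 (11.07 ± 0.63). Heart 7 was lowest and hearts 8 and 10 highest, a 2.88-fold range. Srsf2, which binds exonic enhancers, had 8.09, 7.31, 8.00, 8.20 and 8.32 (7.98 ± 0.40), with heart 7 below the other hearts. Srsf3, a small SR protein that also couples splicing to export, had 11.21, 11.02, 11.05, 11.17 and 11.27 (11.14 ± 0.11), a 1.19-fold range. By this probe set the hearts were close together. Srsf5 had 9.35, 8.80, 8.66, 9.08 and 9.40 (9.06 ± 0.33), with hearts 7 and 8 the lower pair. Srsf11 had 8.13, 8.08, 7.34, 8.27 and 8.08 (7.98 ± 0.37), with heart 8 apart from the rest. It was the only one of the 57 genes with a Dixon ratio, the gap of the outermost heart over the whole range, above 0.71 (1.75%, against 7.56% of all genes). Srsf6 (8.88 ± 0.26), Srsf9 (6.14 ± 0.20) and Srsf10 (7.54 ± 0.18) were lowest in heart 7 by smaller margins. Heart 7 was the lowest heart for 6 of the 8 detected SR genes, against 28.3% of all detected genes.

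Sm and other snRNP proteins did not share that order. Snrpe, a subunit of the Sm ring, had 10.81, 11.39, 11.23, 11.15 and 11.16 (11.15 ± 0.21), with heart 7 highest and heart 6 lowest. Snrpb, which encodes the SmB ring protein, had 8.49, 9.13, 9.19, 8.77 and 9.05 (8.93 ± 0.29), again lowest in heart 6. Snrpb2, a protein of the U2 particle, had 10.67, 10.85, 10.32, 10.70 and 9.88 (10.49 ± 0.39), with heart 10 apart at the low end. Snrpd3 had the same extremes, 11.19 in heart 7 and 10.61 in heart 10. Snrpg, also of the ring, had 11.04, 11.17, 11.25, 11.16 and 11.12 (11.15 ± 0.08) and was among the steadiest of the 57. Snrpa1 (8.25 ± 0.20) and the U1 protein gene Snrpc (7.79 ± 0.22) were highest in heart 9. Snrpn had 5.58, 5.43, 5.78, 4.48 and 5.04, with heart 9 lowest. Heart 7 was lowest for none of the 7 detected genes and highest for 3, against 28.3% and 30.7% of all detected genes.

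Subunits of the SF3 complex, which clamps U2 to the branch site, followed the SR order in part. Sf3b1, its largest scaffold protein, had 8.88, 7.97, 8.52, 8.85 and 8.95 (8.63 ± 0.41), with heart 7 lowest. Sf3b5, a small subunit, had 8.52, 7.60, 8.78, 8.39 and 8.65 (8.39 ± 0.46), and heart 7 again stood below the other hearts. Sf3a1 had 6.35, 5.85, 6.57, 6.45 and 6.49 (6.34 ± 0.29), likewise lowest in heart 7. A further Sf3a1 probe set, above background in 4 hearts, was highest in heart 7, with 5.46, 5.82, 5.04, 5.59 and 5.40. By the probe set used, Sf3a2 was highest in heart 7 and had 6.00, 6.92, 6.35, 6.30 and 6.39 (6.39 ± 0.33). Another Sf3a2 probe set, above background in 1 heart, was lowest in heart 7. Sf3a3 had 7.66, 7.64, 7.91, 7.94 and 7.67 (7.76 ± 0.15). Sf3b4, a branch-site contact that was not detected, had 5.16, 5.23, 5.12, 4.71 and 4.83. Sf3b2 (9.35 ± 0.15), Sf3b3 (9.19 ± 0.17) and Sf3b6 (7.26 ± 0.20) varied less. Heart 7 was lowest for 6 of the 8 detected genes, against 28.3% of all detected genes.

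The U2AF genes each had their own order of hearts. U2af2, the large subunit that binds the polypyrimidine tract, had 6.43, 6.63, 6.93, 6.56 and 6.09 (6.53 ± 0.31), with heart 8 highest and heart 10 lowest. U2af1, the small subunit that reads the AG at the intron's end, had 8.91, 8.40, 8.42, 8.67 and 8.58 (8.60 ± 0.21), with heart 6 highest. U2af1l4, a relative of U2af1, had 7.11, 7.58, 7.27, 7.29 and 6.98 (7.24 ± 0.22), with heart 7 highest.

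Most hnRNP genes were lower in heart 7, and a few hardly moved. Hnrnph1, which binds runs of G near splice sites, had 9.76, 8.36, 9.63, 9.29 and 9.58 (9.32 ± 0.56), a 2.63-fold range with heart 7 alone at the bottom. The other detected Hnrnph1 probe set had 8.53, 7.89, 7.59, 7.92 and 7.71, with heart 8 lowest, so the drop in heart 7 depended on the probe set. Hnrnph3, a relative of Hnrnph1, had 8.04, 7.23, 8.00, 7.76 and 8.08 (7.82 ± 0.36), with heart 7 lowest. Hnrnpa1, a repressor of exon inclusion, had 9.17, 8.41, 8.95, 8.40 and 8.82 (8.75 ± 0.34), with hearts 7 and 9 level at the bottom. Both also formed the lower pair for Hnrnpa2b1, at 11.03, 10.76, 11.25, 10.77 and 11.01 (10.96 ± 0.20), and for Hnrnpc, which binds runs of U and guards against cryptic exons, at 9.33, 8.81, 9.27, 9.00 and 9.10 (9.10 ± 0.21). This pair depended on the probe set. The other detected Hnrnpa1 probe set was lowest in hearts 10 and 8 (7.19 and 7.38), and another of Hnrnpa2b1 in hearts 7 and 8. The remaining detected probe sets of Hnrnpa2b1 and Hnrnpc had hearts 7 and 9 lowest. Hnrnpu, a nuclear scaffold protein needed for splicing in the mouse heart, had 11.54, 11.26, 11.89, 11.54 and 11.64 (11.58 ± 0.23). Hnrnpk, a binder of C-rich RNA, had 11.74, 11.80, 11.95, 11.84 and 11.80 (11.83 ± 0.08), the narrowest range of the 57 genes by fold (1.15-fold). Another detected Hnrnpk probe set varied more, with 6.16, 6.86, 7.01, 6.86 and 6.42 (6.66 ± 0.36). The other 11 hnRNP genes had SDs of 0.12 to 0.34, among them Hnrnph2 (9.26 ± 0.21), highest in heart 6, and Hnrnpul1 (7.19 ± 0.34), highest in heart 8. Heart 7 was lowest for 10 of the 17 detected hnRNP genes and highest for none, against 28.3% and 30.7% of all detected genes.

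PRP factors split between both orders. Prpf19, a ubiquitin ligase at the centre of the complex that activates the spliceosome, had 10.38, 11.06, 10.45, 10.96 and 10.40 (10.65 ± 0.33), with hearts 7 and 9 the higher pair. Prpf8, the scaffold of the catalytic core, had 6.86, 7.26, 6.40, 7.04 and 7.25 (6.96 ± 0.36), with heart 8 lowest. Prpf31, which joins U4/U6 to U5, had 9.06, 9.10, 9.06, 8.64 and 8.85 (8.94 ± 0.20), with heart 9 lowest. Prpf38a, which enters the complex just before activation, had 8.83, 8.23, 9.28, 8.90 and 9.12 (8.87 ± 0.40), with heart 7 lowest. Prpf40b had 5.50, 5.48, 5.95, 4.44 and 5.41, with heart 9 apart. Prpf6, a bridge within the U4/U6.U5 particle, was among the steadiest (9.88 ± 0.09), and Prpf3, Prpf38b, Prpf39 and the kinase Prpf4b had SDs of 0.15 to 0.23. Of 9 detected PRP genes, heart 7 was lowest for 4 and highest for 4, against 28.3% and 30.7% of all detected genes.

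**Figure D1:**
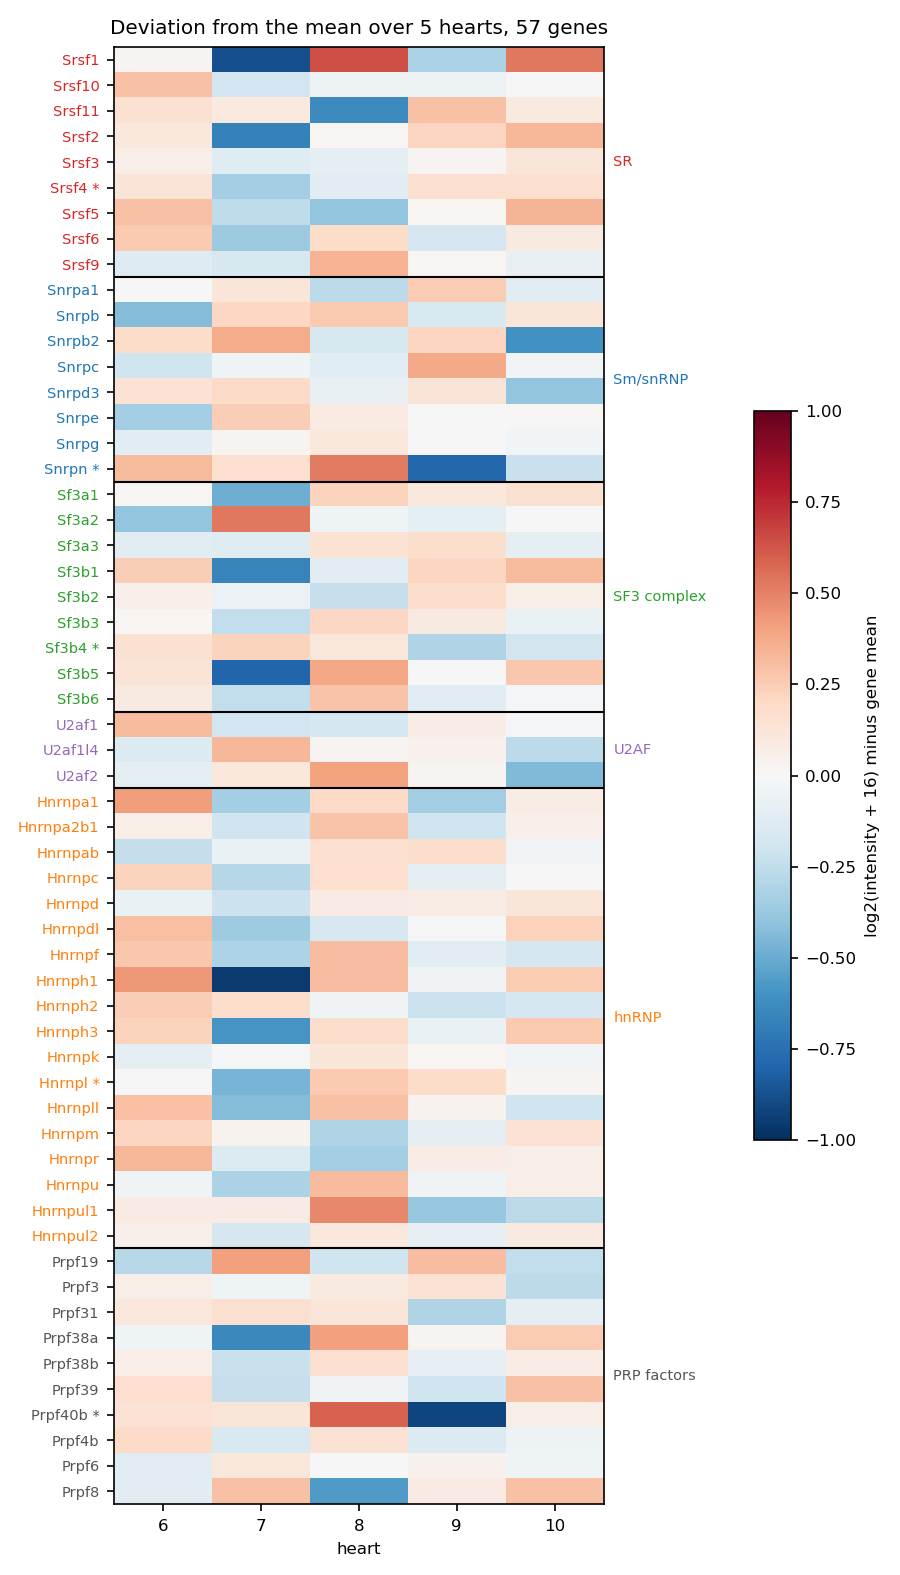
Level of each of the 57 genes in each heart (columns, hearts 6 to 10) minus the gene's mean over the 5 hearts, on the log2(intensity + 16) scale, grouped by protein family; an asterisk marks the 5 genes not detected in all hearts. Blue fields gather in the heart 7 column for SR, SF3 and hnRNP genes, with Hnrnph1 and Srsf1 the darkest, and are missing there for most Sm and snRNP genes.

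With 1 group, the question a test can answer is whether a gene varied more between hearts than genes of its level do. An F test set each gene's variance against limma's prior variance, and is called the variance test here. It called none of the 57 genes (Benjamini-Hochberg over 12393 genes, threshold 0.05), against 5 of all genes, or 0.0403%. At an unadjusted p under 0.05 it took 4 of the 57 (7.02%), against 4.45% of all genes. By this F test against limma's prior they were Srsf1 (adjusted p = 0.437), Hnrnph1 (adjusted p = 0.842), Prpf40b (adjusted p = 0.960) and Snrpb2 (adjusted p = 0.960). The adjusted p of Srsf1 lay between 0.176 and 0.970 over 13 other settings, and was 0.970 without heart 7. Tested as single probe sets, 16 of the 141 had an unadjusted p under 0.05 (11.3%), against 4.33% of all probe sets, and none passed after adjustment, against 0.0442%. Of these 16, 6 belong to SR genes, and probe sets of 1 gene share their transcripts. The median SD of the 57 genes was 0.23, against 0.26 for all genes and 0.24 for detected genes. The order of the 57 and all genes depends on the offset added before log2, with 0.25 against 0.41 at an offset of 1 and 0.20 against 0.14 at an offset of 64. Without heart 7 it was 0.20, against 0.23 for all genes. The median range from the lowest to the highest heart was 1.5-fold for the 57 genes and 1.52-fold for detected genes, and the widest was 2.88-fold (Srsf1).

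**Figure D2:**
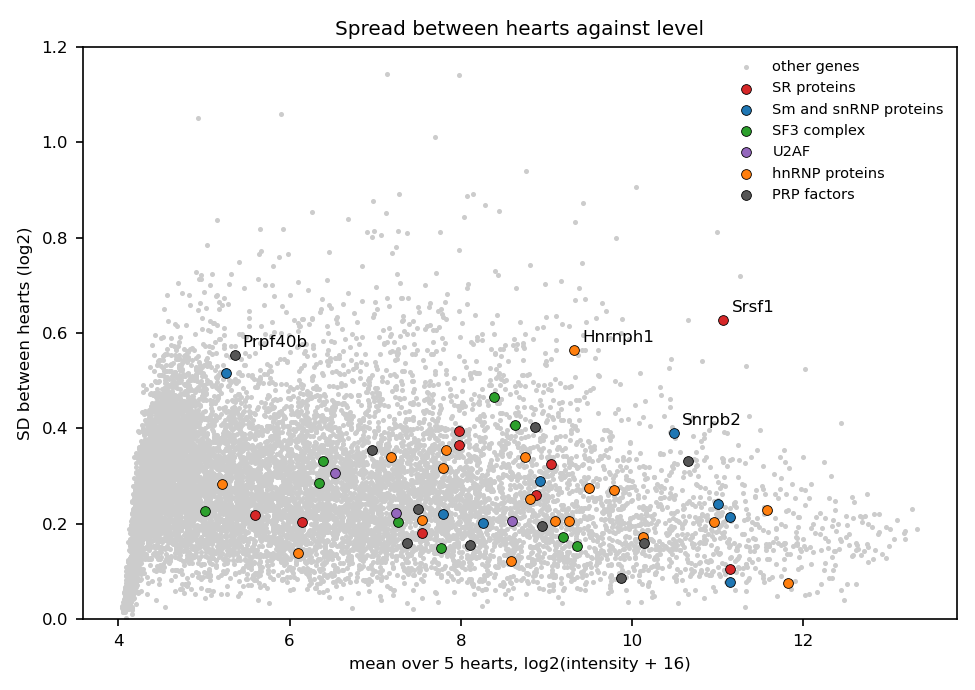
SD between the 5 hearts (y axis, log2) against mean level (x axis, log2(intensity + 16)) for all genes in grey and the 57 genes in the colour of their family; 5 genes with an SD above 1.2 lie outside the plot. Most of the 57 lie within the grey cloud, and the 4 genes with an unadjusted p under 0.05 are named, Srsf1 with the highest SD of the 57 (0.63).

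Heart 7 was the lowest heart for 27 of the 52 detected genes (51.9%), against 28.3% of all detected genes. It was the highest for 9 (17.3%), against 30.7%. Heart 7 was below the mean of the other hearts for 35 of the 52 (67.3%), against 47%. Hearts 6, 8, 9 and 10 were lowest for 9, 7, 4 and 5 of the 52, against 22.6%, 22.4%, 11.2% and 15.6% of all detected genes. They were highest for 12, 17, 7 and 7, against 19.6%, 21.3%, 14.2% and 14.2%, so heart 8 was most often the highest. The median deviation of the 52 genes from their own means was 0.07, -0.15, 0.11, 0.02 and 0.01 in hearts 6 to 10, against 0.02 in heart 7 and at most 0.01 elsewhere for all detected genes. This pattern was noticed in the data, rests on a single heart and was given no test. Heart 7 also had the lowest median correlation across genes with the other hearts, 0.969 against 0.976 to 0.980.

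By family, the difference between heart 7 and the mean of the other 4 hearts had a median of -0.28 for 8 SR genes, -0.31 for 8 SF3 genes and -0.26 for 17 hnRNP genes. The PRP factors had -0.05, the U2AF genes 0.13 and the 7 Sm and snRNP genes 0.24. All detected genes had a median of 0.03, with quartiles of -0.28 and 0.28. With 1 probe set per gene, the SR, SF3 and hnRNP medians were thus negative and the Sm and U2AF medians positive. Over all detected probe sets the medians were -0.50 for SR, -0.19 for SF3, -0.22 for hnRNP and -0.20 for PRP genes. They were 0.13 for U2AF and 0.03 for Sm and snRNP genes, so the Sm and PRP medians depended on the choice of probe sets. By the probe sets used, the most negative differences were those of Hnrnph1 (-1.20), Srsf1 (-1.10) and Sf3b5 (-0.99). The most positive were those of Sf3a2 (0.66), Prpf19 (0.51) and Snrpb2 (0.46). The other detected probe set of Hnrnph1 differed by -0.05. Among detected genes with a mean at or above the median of the 52, the median difference was 0.05.

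**Figure D3:**
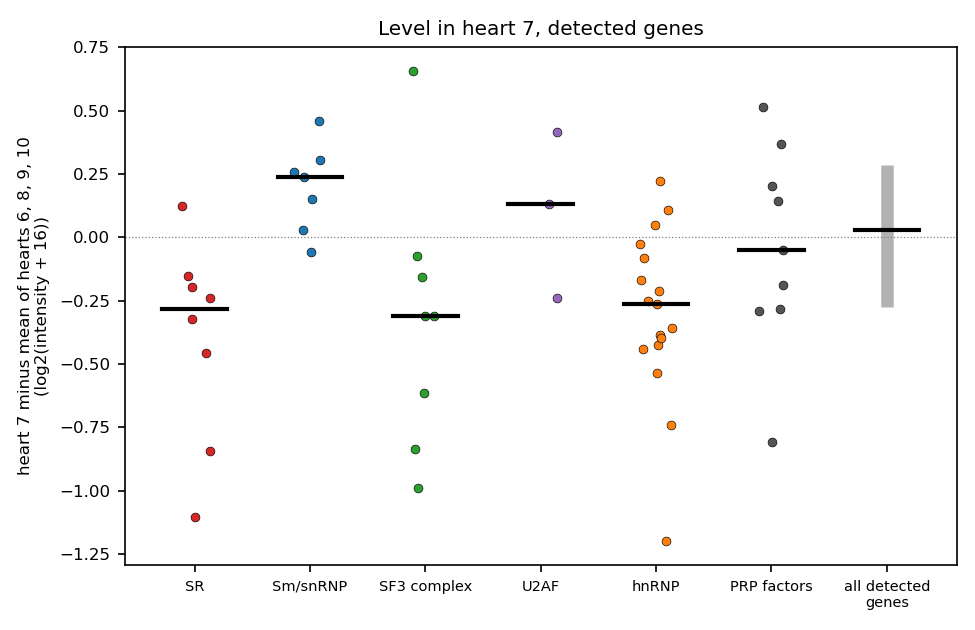
Level in heart 7 minus the mean of the other 4 hearts (y axis, log2(intensity + 16)) for the 52 detected genes by family, 1 point per gene with a bar at the family median; the last column gives the median and, as a grey band, the quartiles of all detected genes. Of the 8 SR genes 7 lie below 0 and of the 7 Sm and snRNP genes 6 lie above it.

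Detected probe sets of the 8 detected SR genes were mostly low in heart 7. Probe sets of 1 gene share its transcripts and all come from the same heart, so their counts are not independent observations. Of 22 detected SR probe sets, which include the 8 used for the genes, 21 were lower in heart 7 than the mean of the other hearts. Of the 22, 18 had their lowest level there (81.8%). Over all detected probe sets these shares were 48.2% and 28.6%, and over the 117 of the 57 genes 71.8% (84) and 50.4% (59). All 5 detected probe sets of Srsf1 were lowest in heart 7, by differences of -0.49 to -1.10. The same held for all 3 of Srsf6 (-0.46 to -0.79), for both of Srsf2 (-0.84 and -0.90) and for 5 of 6 of Srsf3. A further Srsf2 probe set, above background in 4 hearts, was highest in heart 7, with 5.25, 5.88, 5.54, 5.16 and 5.61. The Srsf3 probe set used above differed by -0.15, while another, with 10.19, 8.25, 9.72, 8.64 and 9.75, differed by -1.33, so the size of the difference depended on the probe set. Hearts 7 and 9 were the lowest pair for 13 of the 22 SR probe sets and for 38 of the 117 (32.5%), against 17.2% of all detected probe sets. Median deviations of the SR probe sets were 0.27, -0.40, 0.22, -0.15 and 0.18 in hearts 6 to 10. For 11 Sm and snRNP probe sets they lay between -0.07 and 0.07.

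**Figure D4:**
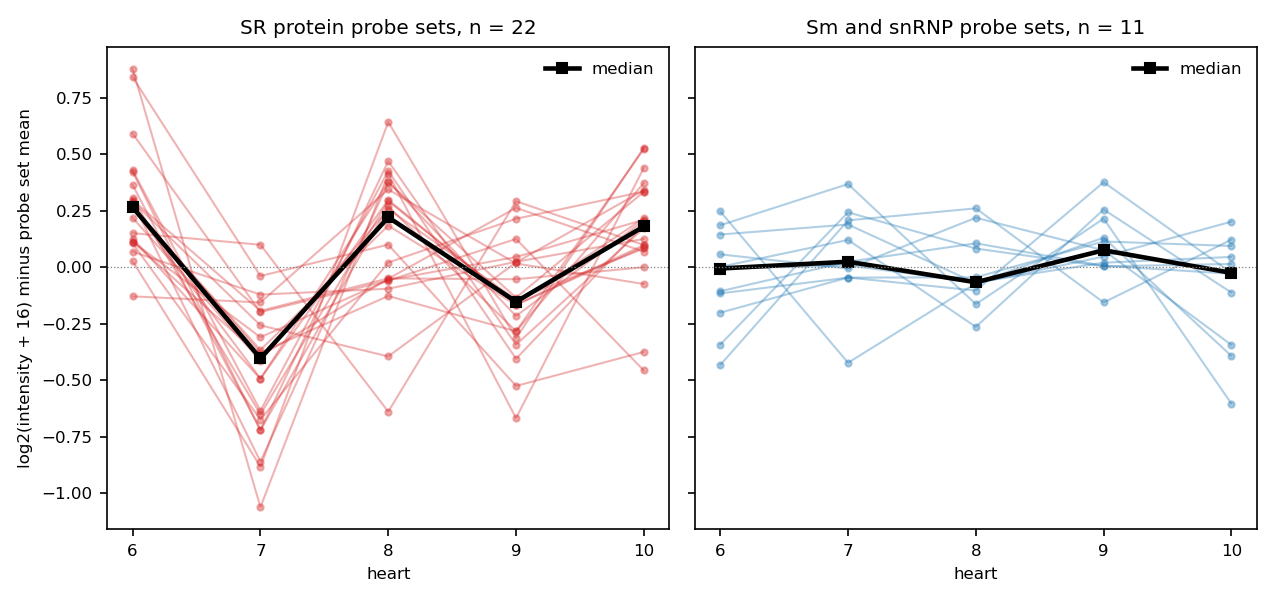
Level of each detected probe set in each heart minus its mean over the 5 hearts (y axis, log2(intensity + 16)), for 22 SR probe sets on the left and 11 Sm and snRNP probe sets on the right; thin lines join the values of 1 probe set and the black line joins the medians. The SR lines dip in heart 7, to a median of -0.40, and less in heart 9, while the Sm and snRNP medians stay near 0.

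Probe sets of a gene did not always have the same order of hearts. Of 30 genes with at least 2 detected probe sets, 16 had all of them lower in heart 7 than in the mean of the others, 3 had all higher and 11 had both. Over 2150 genes of the array with at least 2 detected probe sets, all were lower for 26.3%, all higher for 27.8% and both occurred for 46%. In 4 genes 1 probe set was lowest and another highest in heart 7. For Snrpb2, the probe set used differed by 0.46 and another by -0.53. For Sf3b1, the values were -0.83 for the probe set used and 0.27 for another. For Hnrnpr, the range was -0.86 to 0.51, and for Hnrnpu the range was -0.40 to 0.49. Snrpd3 was highest in heart 7 by the probe set used, but both its others were lowest there, by differences of -1.17 and -0.65. One of these had 6.44, 5.02, 5.88, 6.20 and 6.23. Each exceeded background in 4 hearts and missed it in heart 7, so their low level there kept them out of the 11 Sm and snRNP probe sets counted as detected. For these genes the direction in heart 7 depends on the probe set. Prpf19 and Prpf31 were highest in heart 7 by all their probe sets, and Hnrnpdl lowest by all 4 detected ones. The positions of probe sets along the transcripts were not used here.

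**Figure D5:**
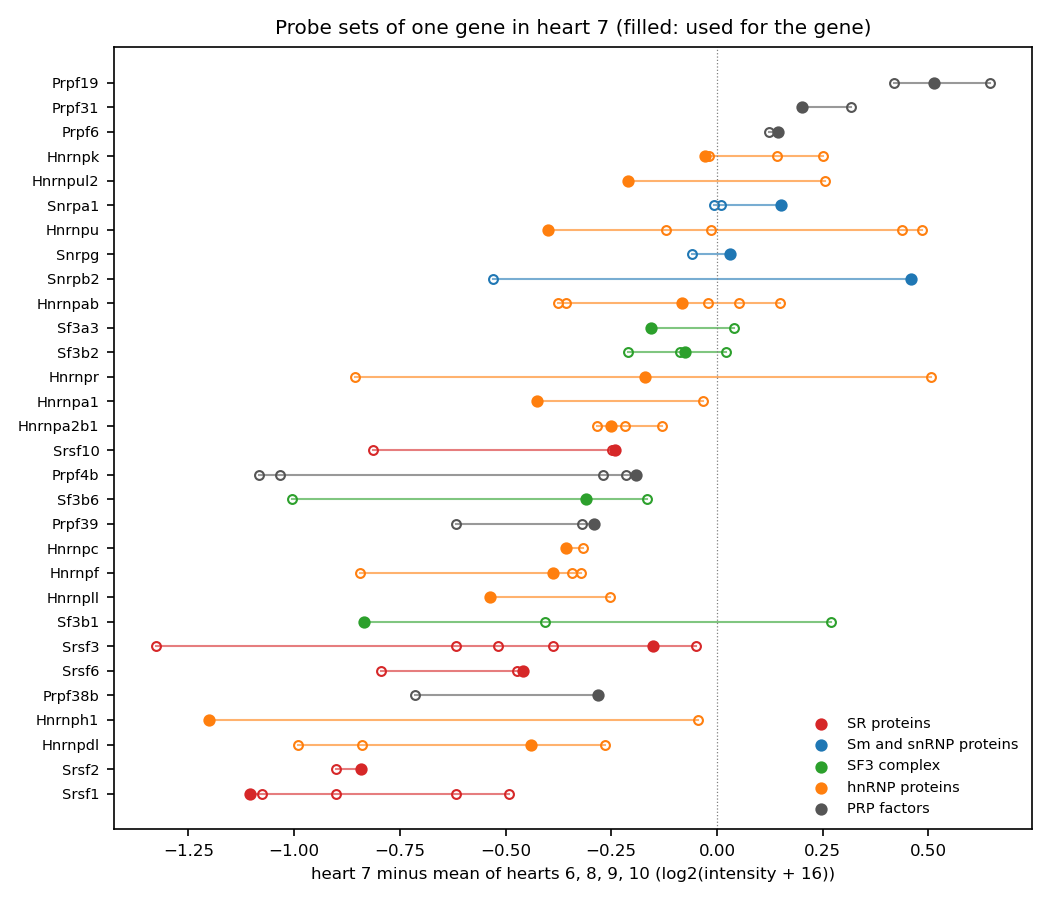
Level in heart 7 minus the mean of the other 4 hearts (x axis, log2(intensity + 16)) for each detected probe set of the 30 genes with at least 2, with 1 row per gene and a line from the lowest to the highest probe set; filled points are the probe sets used for the gene. Srsf1, Srsf2, Srsf3 and Srsf6 lie wholly below 0, Prpf19, Prpf31 and Prpf6 wholly above, and Snrpb2, Hnrnpr, Hnrnpu and Sf3b1 span it.

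Other genes of the pathway, outside the name rule, were taken from a list of 83 symbols, of which 67 were measured. Of these, 66 were detected (98.5%, against 53.7% of all genes), and Aqr, a helicase of the intron-binding complex, exceeded background in 4 hearts. None passed the variance test (F test against limma's prior), and 2 had an unadjusted p under 0.05 in it. Sf1, the branch point binding protein that precedes U2, had 8.70, 7.78, 9.31, 8.51 and 9.00 (adjusted p = 0.864), lowest in heart 7. Prmt5, the methyltransferase that modifies Sm proteins before ring assembly, had 9.57, 9.06, 9.61, 8.36 and 8.68 (adjusted p = 0.864), lowest in heart 9. Heart 7 was lowest for 22 of the 66 (33.3%), near the 28.3% of all detected genes. The median difference of heart 7 was -0.19 for SR-like proteins and SR kinases (10 genes) and -0.23 for exon junction and export factors (9 genes). It was -0.07 for factors of the PRP19 complex and the catalytic steps (15), -0.06 for U2-associated factors (9), 0.03 for other snRNP proteins (11), 0.07 for snRNP assembly (7) and 0.22 for the LSM ring (5).

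Several other measures also set heart 7 apart, and their part in these results was not tested. Its array had the highest background (5.40) and the fewest genes above background, 7147, against 7596 to 8091 in the other hearts. The ratio of 3′ to 5′ signal of the Gapdh control was 2.79, 5.69, 2.50, 3.55 and 2.70 in hearts 6 to 10, highest in heart 7 and next in heart 9. The actin ratio was 3.48, 4.27, 4.48, 3.20 and 3.67, highest in heart 8. For the Gapdh control, the ratio of 3′ to middle signal was 1.16 in heart 7. It lay between 1.15 (heart 6) and 1.22 (hearts 9 and 10), so this ratio did not set heart 7 apart. All 10 cardiomyocyte markers were detected, none was lowest in heart 7, and their summed intensity ranged from 39990 (heart 6) to 49050 (heart 8). Of 7 erythroid markers, 6 were detected and 5 were highest in heart 7, with summed intensities of 17870, 27000, 25370, 17430 and 17570. Of 6 macrophage markers, 3 were detected, all highest in heart 7, and C1qa exceeded background in no heart (summed intensity 451 to 1064). Of 6 epicardial and mesenchymal markers all were detected and 5 were lowest in heart 7 (2850, against 3424 to 3882), as were 4 of 5 proliferation markers (4256, against 4752 to 5177). Of 6 endothelial markers, 4 were detected and 1 of these, Tek, was lowest in heart 7 (summed intensity 1462, against 1859 to 2375), while the median difference of heart 7 was -0.03. Of 6 liver markers, Ttr was detected and Alb, Afp, Apoa1 and Fgb exceeded background in no heart (sum 69.1 to 119.8), and of 5 neuronal markers 2 were detected (sum 150.3 to 213.7).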

How the data were processed

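The authors deposited 1 linear intensity per probe set and array, and the submitters' processing notes name GCOS. Which version and settings it ran with is not stated in the labels. The deposited intensities share a 2% trimmed mean of 150.1, so total signal cannot be compared between hearts. Of 22690 probe sets, 20393 had 1 symbol in the platform annotation, 691 several and 1606 were unlisted; after controls were left out, 20380 were used. All 57 genes matched the GRCm38.p6 RefSeq table by Entrez number.

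Intensities were brought to an equal trimmed mean and taken as log2(intensity + 16), which understates changes of weak genes. A gene took its probe set of highest mean. In R 4.3.3 with limma 3.58.1, an upper-tail F test set the variance of a gene between hearts, on 4 degrees of freedom, against limma's prior (robust, with a trend on level, 12.06 degrees of freedom). It was checked on data simulated from the test's own model, with a single heart shifted by more than the widest range of any member. That check cannot show whether differences of the size seen in the members would be called. The number of arrays limits precision. The members and lists were chosen with earlier results of these data known. Values in every heart were given for textbook members, members with an unadjusted p under 0.05, the 2 of largest SD per family among those detected, and Dixon outliers; other named values were chosen after they were seen. The count of genes lowest in heart 7 was added after the data were seen. Alternatives were scaling, offsets of 1 and 64, probe set choice, each heart left out, background percentiles of 90 and 99, detection in at least 3 hearts and the prior's settings.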

Additional observations from a re-analysis of the deposited data

Results flagged for a closer look

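Srsf11 had 1 heart far from the others. Its level in heart 8 was 7.34, against 8.08 to 8.27 in the other 4, and the gap made up 0.792 of the whole range, above Dixon's 95% critical value of 0.71 for 5 samples. Chance flags about 1 group in 20. This was 1 of the 57 genes (1.75%), against 7.56% of all genes. Its other probe set, above background in 4 hearts, was lowest in heart 7 and not in heart 8. By the probe sets used, Sf3a1, low in heart 7, and Snrpc, high in heart 9, fell just short, with ratios of 0.701 and 0.695.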

How the results depend on the processing

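The number of detected genes was 52 of 57 and lay between 48 (of 56, without probe sets of type _x_at and _s_at) and 56 (when 3 hearts sufficed) over 10 other settings, and between 52 and 54 with 1 heart left out. No gene was called by the variance test under any of the 15 alternatives, while the number at an unadjusted p under 0.05 ranged from 2 (mean of a gene's probe sets, prior without robust estimation, or dim genes left out) to 6 (offset of 1), or 16 of 141 with each probe set on its own, and from 2 to 5 with 1 heart left out. The median SD lay between 0.20 (offset of 64) and 0.25 (offset of 1). Heart 7 was lowest for 25 to 29 detected genes over 10 alternatives, chosen after seeing the data, and its median deviation lay between -0.17 and -0.12; neither exists without heart 7. For hearts 9 and 10 the median deviation changed sign without heart 7 (-0.01 in each), and for heart 10 also without heart 9 (-0.0016), by less than the spread between hearts. Over 29 named genes, 341 of 376 alternative mean levels moved by less than 1 SD. No paired analysis was possible because there is 1 group.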

Other observations

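A further 15 probe sets carry a symbol of these families together with another gene's and stood outside the rule, so their signal cannot be given to 1 gene. All 15 exceeded background in all 5 hearts, against 48.2% of the probe sets with 1 symbol. Of the 15, 6 were lowest in heart 7, against 28.6% of the detected probe sets with 1 symbol. Probe sets shared by Snurf and Snrpn, neighbours in 1 imprinted transcription unit, were detected although the single Snrpn probe set was not. One of them had 8.92, 9.67, 9.32, 8.43 and 9.10 in hearts 6 to 10, with heart 9 lowest. The 4 shared Snurf and Snrpn probe sets were all lowest in heart 9, as was the Snrpn probe set. The 3 probe sets shared by Hnrnpa1 and its pseudogenes had SDs of 0.27 to 0.40, and 1 of them had 10.76, 9.65, 10.39, 10.12 and 10.25, with heart 7 lowest. Probe sets shared by Snrpd2 and Snrpa with other genes were highest in heart 7 (10.88 and 8.49), as were Snrpe and Snrpb2, and the one shared by Snrpd1 was lowest there (9.45).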
